A study of Mus musculus with 30 samples.

Results

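Pre-mRNA splicing genes of mouse embryonic fibroblasts (MEFs) are described here, followed through cell stress with and without the stress kinase p38. The genes were chosen by the first letters of their name on the array: Sfrs (SR and SR-related proteins), Hnrp (heterogeneous nuclear ribonucleoproteins, hnRNPs), Sf3a or Sf3b (subunits of the SF3 complexes), Snrp (proteins of the small nuclear ribonucleoproteins, snRNPs) and Prpf (pre-mRNA processing factors). The rule took 63 of the 21689 named genes, read by 129 of the 33453 named probes. There were 16 Sfrs genes with 35 probes, 18 Hnrp genes with 42 probes, 8 Sf3 genes with 13 probes, 14 Snrp genes with 22 probes and 7 Prpf genes with 17 probes. Names are those of the array's design, and 37 of the 63 genes carry another symbol today, such as Srsf3 for Sfrs3, Hnrnpa3 for Hnrpa3 and Tra2b for Sfrs10. SR proteins and hnRNPs therefore make up part of the list, and the rest of it is the core splicing machinery.

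Splicing removes introns from newly made RNA and is carried out by the spliceosome, a machine built from snRNPs that recognise the splice sites and the branch point. SR proteins bind exons and help the machinery choose nearby splice sites, and hnRNPs coat the new RNA and often act against that choice, so the balance between both kinds of protein shapes alternative splicing. SR proteins are controlled by phosphorylation, and the hnRNP A1 protein is known to leave the nucleus after osmotic shock through p38 signalling. The arrays measured the RNA of these genes and not their proteins, their location or their splicing.

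Each of 30 arrays compared a stressed or treated culture, labelled with Cy5, with 1 common reference labelled with Cy3, a pool of RNA from 2 untreated wild-type (WT) cultures. There were 15 groups of 2 arrays. WT MEFs received anisomycin at 25 ng/ml for 45 min, TNFα at 100 ng/ml for 45 min, or NaCl at 100 mM for 45 min, 2 h or 8 h, each without and with the p38α and p38β inhibitor SB203580, and a further WT group received SB203580 alone. MEFs without p38α (p38α-/-) were left untreated or received anisomycin for 45 min, TNFα for 45 min or NaCl for 2 h at the same doses. Sample titles give SB203580 as 10 mM for 2 h, while the treatment description gives 10 µM from 30 min before the stress. All cells were immortalised lines, each genotype is represented by 1 line, and no p38α-/- culture with NaCl for 8 h was analysed here. Anisomycin inhibits protein synthesis and activates stress kinases, TNFα is an inflammatory cytokine, and NaCl raises the osmolarity of the medium.

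Values are log2 ratios of the treated sample over the pool. The pool was the only untreated WT material and the dyes were not swapped, so a value against the pool holds the treatment and any lasting dye or reference difference together. Those parts cancel when arrays are compared with arrays, and such comparisons carry the account below. A gene was called when its adjusted p in limma was under 0.05, and p-values measure the spread between the arrays of a pair. Mapk14, which encodes p38α, was read by 1 probe and lay between -2.24 and -0.94 on the 6 p38α-/- arrays where it was measured, and between 0.05 and 1.31 on 16 WT arrays. The 8 fibroblast markers were detected, with median signals from 1092 units (Pdgfrb) to 62985 units (Vim). Signal above background was also seen for the endothelial, epithelial and leukocyte markers, with medians of up to 3325 units, so the lists overlapped. Among the leukocyte markers Ptprc was weakest, well above background on 34.4% of spots, while Csf1r (3325 units) was so on 100%. These markers' part in the results was not tested. Of the splicing probes, 125 of 129 were well above background in both channels on all 30 arrays, but 30.2% of their spots carried an outlier flag from the scanner software, against 21.0% for all named probes, and the share per array ran from 6.98% to 65.1%. Flagged spots were left out of gene means, so 57 of the 63 genes could be tested between arrays at least once. The others, Hnrpk, Hnrpm, Prpf8, Sf3a3, Sf3b2 and Snrpb, never had enough unflagged spots.

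Among the NaCl times, gene means of splicing genes were called only in comparisons that held 8 h. From 45 min to 2 h hardly any gene of any kind was called. Between 2 h and 8 h of NaCl in WT MEFs, 7 of 44 splicing genes tested were called, 4 higher and 3 lower, where 7.56% of all genes tested were called, 3.24% higher and 4.33% lower. Sfrs3 fell by 1.24 on the log2 scale (SE 0.28, adjusted p = 0.0115 by limma), Sf3b1 fell by 1.06 (SE 0.31, adjusted p = 0.0419) and Hnrpll fell by 0.68 (SE 0.16, adjusted p = 0.0124). Sfrs11 rose by 1.24, Sfrs12 by 0.64, Prpf4b by 0.60 and Prpf3 by 0.54. Left out 1 at a time, the 4 arrays mattered: 0 were called without replicate 2 of NaCl 8 h, 3 and 4 without replicate 2 and replicate 1 of NaCl 2 h, and 5 without replicate 1 of NaCl 8 h. From 45 min to 8 h 7 of 36 were called, where 7.05% of all genes were: Sfrs3, Sf3b1 and Hnrpa3 were lower, by 1.81, 1.12 and 0.72, and Sfrs4, Prpf3, Prpf4b and Sfrs12 higher, by 0.75, 0.64, 0.61 and 0.51. A gene mean may join different probes on different arrays once flagged spots are left out. Over only the probes unflagged on every array compared, Sfrs12 from 2 h to 8 h (adjusted p = 0.125) and Hnrpa3 (0.303), Prpf4b (0.110) and Sfrs12 (0.508) from 45 min to 8 h were not called by limma, and Sfrs11 had no such probe. From 45 min to 2 h of NaCl, 0 of 34 splicing genes were called by limma and 2 had an unadjusted p under 0.05, while 0.0386% of all genes were called. Single probes were also fitted with their flagged spots kept, so that all 129 could be read, and these values are used where a probe is named below.

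Promoters of 4 genes are shown as the 120 bases before the transcription start (RefSeq, mouse build GRCm38.p6). They were chosen because 4 of their single probes gave the 4 largest called differences from 2 h to 8 h without SB203580. These ran both up and down, and the gene means of Sfrs7 and Prpf39 were not called in that comparison. Sfrs3 lies at chr17:29032540-29032659 on the + strand, Sfrs7 at chr17:80207306-80207425 on the - strand, Sf3b1 at chr1:55027479-55027598 on the - strand and Prpf39 at chr12:65036214-65036333 on the + strand. Each is written 5′ to 3′ on the gene's strand, ending at the base before the start, and capitals mark the motifs found in it on either strand: the GC box GGGCGG, the CCAAT box and the TATA box.
Sfrs3: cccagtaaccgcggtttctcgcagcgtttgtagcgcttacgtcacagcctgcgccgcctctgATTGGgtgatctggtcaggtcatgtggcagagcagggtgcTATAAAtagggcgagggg
Sfrs7: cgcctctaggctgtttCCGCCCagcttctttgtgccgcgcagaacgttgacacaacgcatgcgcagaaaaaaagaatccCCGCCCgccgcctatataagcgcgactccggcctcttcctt
Sf3b1: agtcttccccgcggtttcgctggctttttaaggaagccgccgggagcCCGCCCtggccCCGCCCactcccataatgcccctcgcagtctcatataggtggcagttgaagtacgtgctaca
Prpf39: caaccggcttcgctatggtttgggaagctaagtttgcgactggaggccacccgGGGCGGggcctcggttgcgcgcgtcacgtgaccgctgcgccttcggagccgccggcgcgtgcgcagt

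Sfrs7, Sf3b1 and Prpf39 hold the GC box GGGCGG in these stretches, and Sfrs3 holds a TATA box and a CCAAT box. The TATA box was searched as TATAAA. Over the 250 bases before the start, 62.3% of 77 windows of 56 splicing genes held GGGCGG on either strand, against 32.7% of 32851 windows of all genes. The CCAAT box was in 36.4% of the splicing windows against 33.8%, and the TATA box in 7.79% against 12.4%. The cyclic AMP response element TGACGTCA was in 2.60% against 1.55%, the AP-1 site TGANTCA in 3.90% against 6.75%, and TGGAAA, the core read by NFAT5 and its relatives, in 10.4% against 18.6%. No searched motif contains another. A match is a match of letters only.

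**Figure D1:**
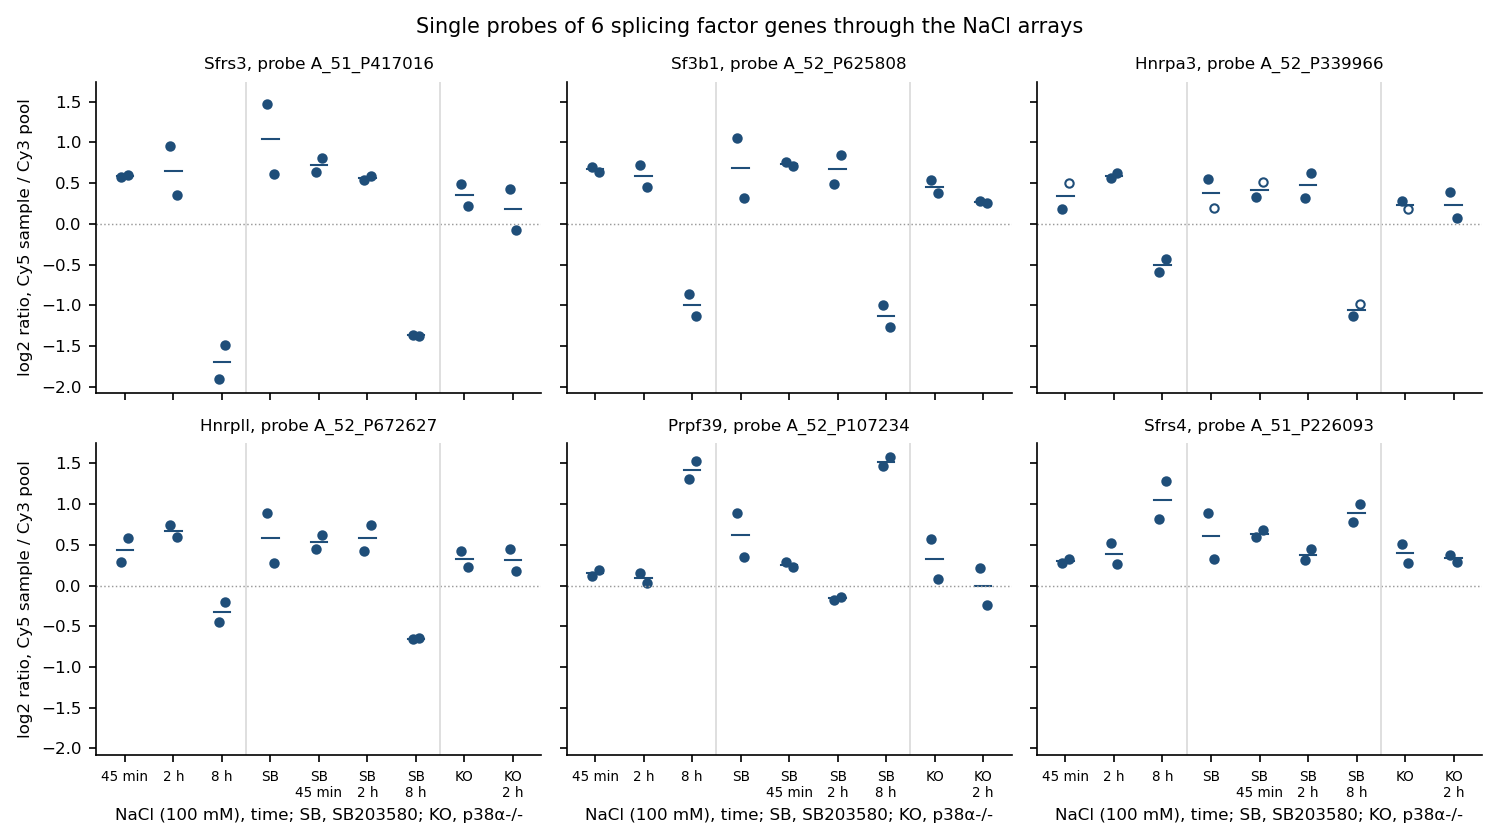
Log2 ratio over the pool (y axis) of 6 splicing probes on the WT arrays with NaCl for 45 min, 2 h and 8 h, without and with SB203580 (x axis). Each point is 1 array, open points carry an outlier flag and bars are means of 2 arrays; the Sfrs3 and Sf3b1 probes lie below the pool at 8 h and above it earlier, in both series.

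Among the SR proteins, Sfrs3 showed the largest fall. Sfrs3 is the smallest of the classic SR proteins and takes part in splicing, 3′ end formation and RNA export. Its probe A_51_P417016 read 0.58 and 0.60 at 45 min of NaCl, 0.96 and 0.35 at 2 h, and -1.91 and -1.48 at 8 h. With SB203580 the same probe read 0.63 and 0.81, then 0.54 and 0.58, then -1.36 and -1.37. The 4 arrays with 8 h of NaCl thus lay between -1.91 and -1.36, and the other 26 arrays between -0.12 and 1.47, with no overlap. From 2 h to 8 h this probe fell by 2.35 (SE 0.27, adjusted p = 2.97e-05 by limma over all probes), a 5.10-fold difference, with -2.87 and -1.84 within the 2 scans that hold the WT replicates. The other Sfrs3 probe, A_52_P545451, which carries the accession of another transcript, differed by 0.43 (SE 0.21, adjusted p = 0.280), so the mean over both probes understates the first and describes neither.

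Sfrs7, a close relative of Sfrs3 with an additional zinc knuckle, was read by 3 probes to the same reference mRNA that moved in opposite directions. Probe A_51_P466673 read -0.14 and -0.34 at 2 h of NaCl and -1.57 and -1.86 at 8 h, a fall of 1.48 (SE 0.25, adjusted p = 0.00110 by limma). Probe A_52_P649685, with 2 flagged spots, read 0.48 and 0.50 at 2 h and 0.94 and 1.25 at 8 h, a rise of 0.60 (SE 0.17, adjusted p = 0.0374). Probe A_52_P649683 read 0.47 and 0.51, then 0.88 and 1.23, a difference of 0.57 (SE 0.18, adjusted p = 0.0613). After SB203580 all 3 passed the test in these directions, with a fall of 0.98 for the first and rises of 0.94 and 0.89 for the others. Over the 42 splicing genes with several probes, Sfrs7 was the 1 gene with a probe called in each direction, in either series. Among all 8326 genes with several probes that held for 0.132% without and 0.108% with SB203580. The gene mean of Sfrs7 differed by -0.30 without the inhibitor (adjusted p = 0.431) and by 0.28 with it (adjusted p = 0.495), neither called.

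**Figure D2:**
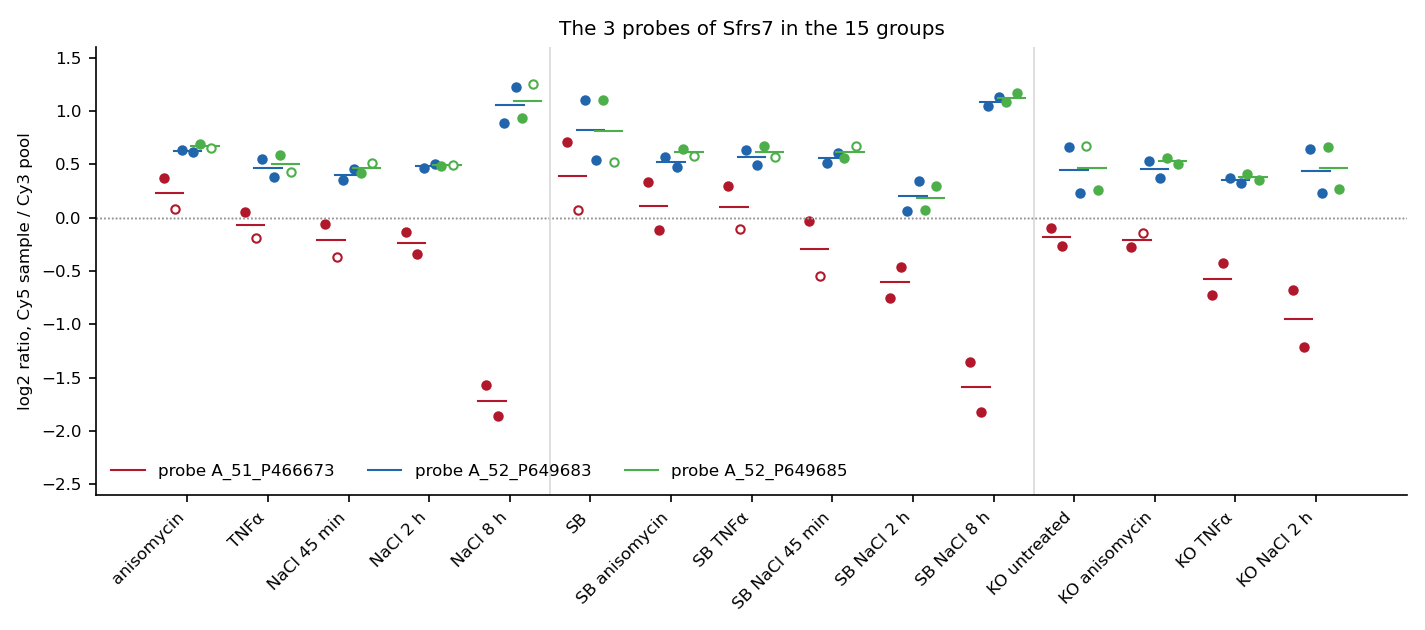
Log2 ratio over the pool (y axis) of the 3 Sfrs7 probes in the 15 groups (x axis), 1 point per array, open where flagged, with bars at the mean of 2 arrays. At 8 h of NaCl probe A_51_P466673 lies at -1.86 to -1.35 while A_52_P649683 and A_52_P649685 lie at 0.88 to 1.25.

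The first Sfrs7 probe was also low with NaCl for 2 h in p38α-/- MEFs, at -0.68 and -1.21, against -0.09 and -0.26 in untreated p38α-/- MEFs. That difference of -0.77 (SE 0.25) did not pass the test (adjusted p = 0.206 by limma), and the other 2 probes differed by -0.01 and 0.00.

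Other SR and SR-related genes moved less, and mostly upwards. Sfrs4, which enhances splicing at exons, had a probe (A_51_P226093) at 0.52 and 0.27 at 2 h and 0.82 and 1.29 at 8 h, a rise of 0.66 (SE 0.17, adjusted p = 0.0223 by limma). The gene mean of Sfrs4 was called from 45 min to 8 h, with 0.75 (SE 0.17, adjusted p = 0.0115), and not from 2 h to 8 h. Sfrs12 rose from 2 h to 8 h in both series as a gene mean over 4 probes, by 0.64 (SE 0.12, adjusted p = 0.00344) without and by 0.60 (SE 0.12, adjusted p = 0.00571) with SB203580. With flagged spots kept, the 4 probes differed by 0.47 to 0.55 without SB203580 and 1 of them passed the test on its own. The mean of 0.64 lies outside that range because different probes were left on different arrays. On the 1 probe unflagged on all 4 arrays the difference was 0.52 (SE 0.19, adjusted p = 0.125), not called, while with SB203580 all 4 probes were unflagged throughout. The gene mean of Sfrs11 rose by 1.24, but none of its 2 probes was unflagged on all 4 arrays, and its probe A_52_P685971, with flagged spots kept, rose by 0.61 (SE 0.18, adjusted p = 0.0438).

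Sfrs1, the archetypal SR protein, Sfrs2, Sfrs5, Sfrs6 and Sfrs9 gave no call from 2 h to 8 h on any probe. Their 11 probes differed by -0.24 (Sfrs6) to 0.38 (Sfrs1). Sfrs1, Sfrs5 and Sfrs9 had too few unflagged spots for a gene mean in this comparison, and the gene means of Sfrs2 and Sfrs6 differed by 0.13 (SE 0.38) and -0.09 (SE 0.27). Sfrs10, the splicing regulator Tra2b, read 0.63 and 0.99 at 2 h and 0.09 and 0.01 at 8 h with 1 flagged spot kept, a fall of 0.76 (SE 0.16, adjusted p = 0.00427).

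From 2 h to 8 h of NaCl, the hnRNP probes that were called all fell. With every spot counted, 10 of 42 hnRNP probes were lower and 0 higher from 2 h to 8 h, with a median of -0.22, where 4.58% of all probes were lower, 3.56% higher and the median was 0.02. After SB203580, 13 of 42 were lower and 0 higher, with a median of -0.32, where 3.84% of all probes were lower and 3.34% higher. With flagged spots left out, 1 of 11 hnRNP genes tested fell without the inhibitor and 4 of 12 with it. Of all genes tested, 4.33% and 3.83% were lower. Without the inhibitor the called Hnrpa1, Hnrpab, Hnrpd, Hnrpdl, Hnrpk and Hnrpul1 probes had 1 or 2 flagged spots each among the 4 arrays. From 45 min to 8 h, 5 of 42 hnRNP probes were lower and 2 higher without the inhibitor, where 3.8% of all probes were lower and 4.34% higher, and 13 were lower and 0 higher with it, where 4.37% and 3.75% were.

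Hnrpa3, a member of the hnRNP A/B group that binds and packages nuclear RNA, fell on 2 of its 4 probes. Probe A_52_P339966 read 0.56 and 0.62 at 2 h and -0.59 and -0.43 at 8 h, a difference of -1.10 (SE 0.14, adjusted p = 9.36e-05 by limma). After SB203580 it read 0.32 and 0.62, then -1.12 and -0.98 with 1 flagged spot, a fall of 1.52 (SE 0.14, adjusted p = 8.90e-06). Its 4 arrays with 8 h of NaCl lay below all other 26 arrays. The gene mean of Hnrpa3 passed with SB203580, at -0.88 (SE 0.20, adjusted p = 0.0147), and without it differed by -0.57 (SE 0.20, adjusted p = 0.109).

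Hnrpll, known for switching the splicing of the leukocyte surface protein CD45, fell on 1 of 3 probes. That probe, A_52_P672627, read 0.75 and 0.59 at 2 h and -0.45 and -0.21 at 8 h without the inhibitor. It read 0.42 and 0.74, then -0.66 and -0.64, with it. The falls were 1.00 (SE 0.18, adjusted p = 0.00131 by limma) and 1.23 (SE 0.18, adjusted p = 2.61e-04).

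Hnrpdl, a relative of the AU-rich element binding protein Hnrpd, was read by 4 probes that did not follow each other. Probe A_52_P283910 stood at 1.16 and 0.76 at 2 h and -0.29 and -0.28 at 8 h, a fall of 1.25 (SE 0.20, adjusted p = 5.33e-04 by limma, 1 spot flagged). Probe A_52_P146848 was the 1 splicing probe called from 45 min to 2 h of NaCl, with a rise of 0.94 (SE 0.16, adjusted p = 0.0189, 1 spot flagged), from -0.26 and -0.54 to 0.66 and 0.42. That call was 1 of 129 probes, where 0.143% of all probes were called. The gene mean of Hnrpdl fell from 2 h to 8 h after SB203580 by 0.78 (SE 0.18, adjusted p = 0.00973), with 1 of its probes saturated on 3 of the 4 arrays.

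Hnrpd itself fell on both of its probes with flagged spots kept, by 0.69 (SE 0.20, adjusted p = 0.0445 by limma) and 0.59 (SE 0.17, adjusted p = 0.0403), and by 1.02 and 0.79 after SB203580. Hnrpab, Hnrpk, a poly-C binding protein, and Hnrpul1 each fell on 1 of 3 probes in both series. The falls without SB203580 were 0.67, 0.74 and 0.78. Hnrpl, a binder of CA-rich RNA with 1 probe, read 0.53 and 0.78 at 2 h and -0.11 and 0.14 at 8 h after SB203580, a fall of 0.64 (SE 0.17, adjusted p = 0.0300 for the gene mean). Without the inhibitor it read 0.85, which was flagged, and 0.83 at 2 h and 0.19 and 0.44 at 8 h, a difference of -0.53 (SE 0.16, adjusted p = 0.0555).

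Hnrpa1, the protein that moves to the cytoplasm on osmotic shock, had 4 probes. Probe A_51_P400784 fell by 0.92 (SE 0.24, adjusted p = 0.0214 by limma, 2 spots flagged). Probe A_51_P296940 was saturated on all 4 arrays, so no difference is given for it or for the gene mean. Probe A_52_P232433 differed by 0.33 (SE 0.23, adjusted p = 0.501), and on it the 4 arrays with 8 h of NaCl lay at 0.91 to 1.29, above the other 26. Hnrpa2b1, a close relative of Hnrpa1, was read by 2 probes with differences of opposite sign from 2 h to 8 h. Probe A_52_P636482, with no flagged spot, read 0.20 and 0.36 at 45 min, 0.41 and 0.36 at 2 h and 0.96 and 1.42 at 8 h. It rose from 45 min to 8 h by 0.91 (SE 0.25, adjusted p = 0.0289 by limma), and from 2 h to 8 h it differed by 0.81 (SE 0.25, adjusted p = 0.0532) without and 0.73 (SE 0.25, adjusted p = 0.0955) with SB203580. Probe A_51_P419981 differed from 2 h to 8 h by -0.35 (SE 0.17, adjusted p = 0.280) without SB203580 and fell by 0.63 (SE 0.17, adjusted p = 0.0315) with it. The other hnRNP probe that rose from 45 min to 8 h was Hnrpu A_51_P324393, by 0.73 (SE 0.15, adjusted p = 0.00367, 2 spots flagged).

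Hnrph1, Hnrpm, Hnrpr and Hnrpu gave no call from 2 h to 8 h without SB203580 on any probe, and Hnrpc had differences of -0.52 (adjusted p = 0.0550) and 0.24 (adjusted p = 0.594) on its 2 probes. Hnrpc fell on 1 probe after SB203580, by 0.67 (SE 0.16, adjusted p = 0.0143).

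Of the core machinery, Sf3b1 changed most. Sf3b1 is the largest SF3b subunit and holds the branch point within the U2 snRNP. Its probe A_52_P625808 read 0.72 and 0.46 at 2 h and -0.86 and -1.13 at 8 h without SB203580. It read 0.49 and 0.85, then -0.99 and -1.26, with it. The falls were 1.59 (SE 0.20, adjusted p = 7.22e-05 by limma) and 1.80 (SE 0.20, adjusted p = 3.20e-05). The 4 arrays with 8 h lay between -1.26 and -0.86 and the other 26 between 0.13 and 1.05. The second Sf3b1 probe, to the same reference mRNA, differed by 0.20 (SE 0.25, adjusted p = 0.774) without SB203580. The other 12 Sf3 probes gave no call in either series.

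Of the Prpf probes called from 2 h to 8 h, most rose. Prpf39, a factor associated with the U1 snRNP, had a probe (A_52_P107234) at 0.15 and 0.03 at 2 h and 1.31 and 1.53 at 8 h, a rise of 1.33 (SE 0.19, adjusted p = 2.90e-04 by limma). With SB203580 it went from -0.17 and -0.14 to 1.47 and 1.57, a rise of 1.68 (SE 0.19, adjusted p = 4.60e-05). The 4 arrays with 8 h lay at 1.31 to 1.57 and the other 26 at -0.24 to 0.89. The other 2 Prpf39 probes differed by -0.27 and 0.28, neither called.

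Prpf3, a protein of the U4/U6 snRNP with 1 probe, read -0.35 and -0.31 at 2 h and 0.18 and 0.23 at 8 h, a rise of 0.54 (SE 0.12, adjusted p = 0.00975 by limma). Its partner Prpf4 rose by 0.45 on 1 of 2 probes (SE 0.10, adjusted p = 0.00539). The kinase gene Prpf4b rose on 2 of 4 probes, by 0.54 and 0.76. In the fit with flagged spots left out, the rise of 0.76 was not called (SE 0.25, adjusted p = 0.0850 by limma). Prpf31, which joins the tri-snRNP together, fell by 0.51 on A_51_P340704 (SE 0.12, adjusted p = 0.0112), while its other probe differed by 0.40 (SE 0.16, adjusted p = 0.140). Over 17 Prpf probes, 5 rose and 1 fell without SB203580 and 4 rose and 1 fell with it. Of all probes, 3.56% were higher and 4.58% lower without the inhibitor, and 3.34% and 3.84% with it.

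The snRNP proteins, the Sm ring and the proteins particular to each snRNP, gave 2 calls from 2 h to 8 h without SB203580. Of all probes, 8.14% were called in that comparison. Of 22 probes 1 rose, a Snrp70 probe to the U1 snRNP protein (0.35, SE 0.10, adjusted p = 0.0428 by limma), and 1 fell, the probe of Snrp116, now named Eftud2, a U5 snRNP protein (-0.54, SE 0.15, adjusted p = 0.0265, 1 spot flagged). In the fit with flagged spots left out, the Snrp70 probe was not called (adjusted p = 0.0717 by limma). After SB203580 1 of the 22 probes fell, the Snrpe probe (-0.53, SE 0.16, adjusted p = 0.0473), where 7.18% of all probes were called. As gene means, 0 of 12 and 0 of 9 Snrp genes were called in these comparisons, where 7.56% and 7.02% of all genes were.

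Counting all families with every spot kept, 26 of 129 probes of 22 genes were called from 2 h to 8 h without SB203580, 10 higher and 16 lower, where 8.14% of all probes were called. With SB203580 28 probes were called, 10 higher and 18 lower, where 7.18% were called. Across the whole series, 11 splicing probes (8.53%) had their 4 arrays with 8 h of NaCl below all other 26 arrays, and 11 had them above. Of all 33453 named probes, 1310 (3.92%) lay below and 719 (2.15%) above. The 11 low probes were of Hnrpa3, Hnrpab, Hnrpdl, Hnrpk, Hnrpll, Hnrpul1, Prpf31, Sf3b1, Sfrs3, Sfrs7 and Snrpa1. The 11 high probes were of Hnrpa1, Prpf3, Prpf31, Prpf39, Prpf4, Prpf4b, Sfrs11, Sfrs5 and Snrp70. Prpf4b and Sfrs11 gave a pair each, and Prpf31 had a probe on each side.

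The 8 h change was present with the p38 inhibitor. In the cells given SB203580, 8 of 44 splicing genes were called from 2 h to 8 h of NaCl, 2 higher and 6 lower, where 7.02% of all genes were called, 3.19% higher and 3.83% lower. Those higher were Prpf39, by 0.64 (SE 0.14, adjusted p = 0.00745 by limma), and Sfrs12. Those lower were Sfrs3 by 1.71 (SE 0.28, adjusted p = 0.00109), Sf3b1 by 1.54 (SE 0.31, adjusted p = 0.00456), Hnrpa3, Hnrpdl, Hnrpll and Hnrpl. Of the probes with every spot kept, 20 were called in both series, 14 lower and 6 higher, and 0 in opposite directions. They make up 76.9% of those called without and 71.4% of those called with the inhibitor. The same overlap was not counted for all probes, so these shares have no background beside them. Of the 8 genes, 2 were called without replicate 2 of either time, 3 without replicate 1 of NaCl 2 h and 5 without replicate 1 of NaCl 8 h. From 45 min to 8 h 4 of 33 were called, Sfrs3, Sf3b1, Hnrpll and Hnrpl, all lower, where 6.23% of all genes were called, and from 45 min to 2 h 0 of 33, with 5 at an unadjusted p under 0.05 (limma), where 0.309% were.

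**Figure D3:**
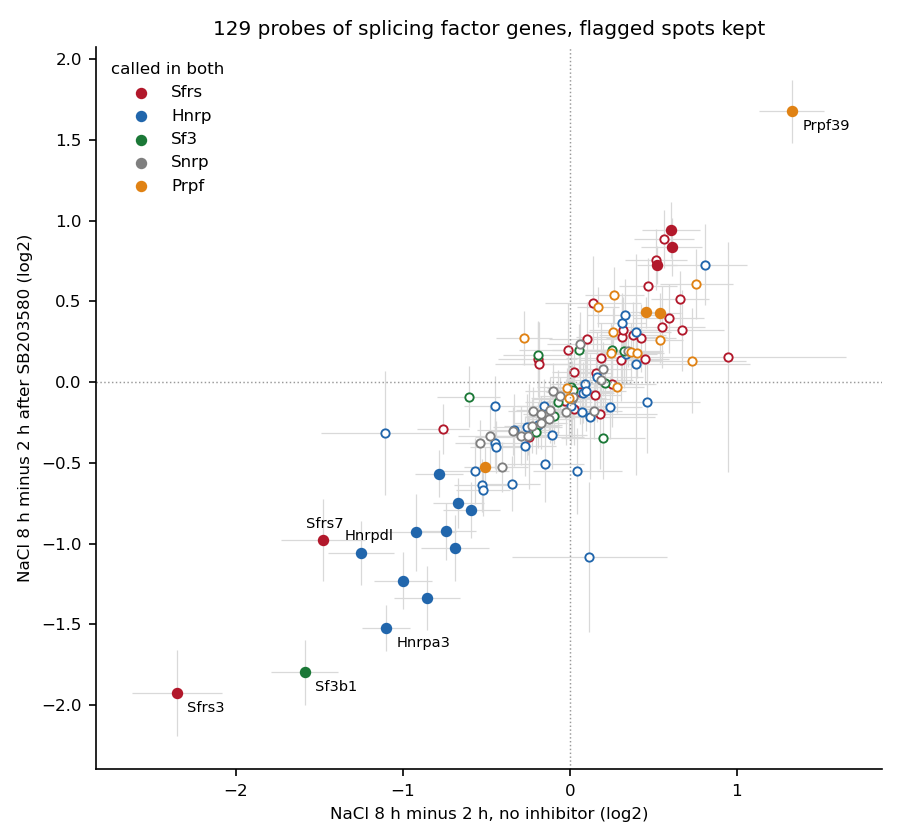
Change in log2 ratio from 2 h to 8 h of NaCl for the 129 splicing probes, without SB203580 (x axis) and with it (y axis), flagged spots kept, bars ± SE. Filled points are the 20 called in both series; 14 of them lie at the lower left and 6 at the upper right, with Sfrs3 at -2.35 and -1.92 and Prpf39 at 1.33 and 1.68.

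A direct test of the inhibitor gave no call. The change from 2 h to 8 h was called between the series in 0 of 37 genes (limma), with 2 at an unadjusted p under 0.05 and 0.0% of all genes called. It differed by 0.43 for the Sfrs3 probe (95% interval -0.37 to 1.22) and by -0.21 for the Sf3b1 probe (-0.81 to 0.38). At 8 h of NaCl, SB203580 against no inhibitor gave 0 of 44 calls, with 1 at an unadjusted p under 0.05, where 0.199% of all genes were called. The Sfrs3 probe differed there by 0.33 (95% interval -0.23 to 0.89), the Sf3b1 probe by -0.13 (-0.55 to 0.29), the Prpf39 probe by 0.10 (-0.31 to 0.51) and the Hnrpa3 probe A_52_P339966 by -0.54 (-0.84 to -0.24, adjusted p = 0.231). These intervals do not show that the inhibitor was without effect. The same test gave 0 calls among 33 genes after anisomycin, where 0.0204% of all genes were called, and 0 among 38, 28 and 43 after TNFα and after the 45 min and 2 h times of NaCl, where 0.0% were. Over these 5 comparisons 4 of 186 tests had an unadjusted p under 0.05 (limma). Single probes with flagged spots kept gave 0 of 129 calls in each of the 5 by limma, with 7 at an unadjusted p under 0.05 at 8 h of NaCl and at most 3 in the others, where at most 0.114% of all probes were called (0.0448% after anisomycin, 0.0% after TNFα and 45 min of NaCl, 0.00598% after 2 h).

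Against SB203580 alone, the stresses of 45 min gave no call in splicing genes: 0 of 34 with anisomycin, 0 of 36 with TNFα and 0 of 29 with NaCl by limma, with 3, 0 and 1 at an unadjusted p under 0.05, where 0.014%, 0.0983% and 0.0362% of all genes were called. NaCl for 2 h gave 2 of 37, where 2.7% of all genes were called. Hnrpdl was higher by 0.74 (SE 0.18, adjusted p = 0.0265) and Sfrs7 lower by 0.83 (SE 0.18, adjusted p = 0.0162). Over the probes unflagged on every array compared neither was called, with adjusted p-values of 0.113 and 0.0770 by limma. NaCl for 8 h gave 4 of 36, where 7.37% of all genes were called. Prpf3 was higher by 0.47 (SE 0.13, adjusted p = 0.0384). Sfrs3 was lower by 2.41 (SE 0.28, adjusted p = 7.32e-05), Sf3b1 by 1.03 (SE 0.31, adjusted p = 0.0496) and Hnrpll by 0.71 (SE 0.16, adjusted p = 0.00886). The SB203580 arrays differed between themselves, for example 1.47 and 0.61 on the Sfrs3 probe and 1.05 and 0.31 on the Sf3b1 probe. Without replicate 1 of SB203580 alone 1 call was left over the 5 comparisons, without replicate 2 there were 11 in place of 6, and without either array of SB203580 with 8 h of NaCl there were 3. The effect of NaCl for 2 h on Sfrs7 was called as different between the series when the stress was set against SB203580 alone and the pool, but there the pool and the dyes do not cancel. That was 1 of 34 genes, where 1.37% of all genes were called. With the replicate number as a block, the calls of this kind over the 5 stresses went from 1 to 9.

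In p38α-/- MEFs few splicing genes were called after the stresses, and few genes of any kind were. Against untreated p38α-/- MEFs, anisomycin gave 0 of 43 calls and TNFα 0 of 42 by limma, each with 1 at an unadjusted p under 0.05, where 0.0847% and 0.0715% of all genes were called. NaCl for 2 h gave 1 of 46, where 1.05% of all genes were called, and 1 of 129 single probes, where 1.08% were. That gene was Sfrs10, at 1.07 and 1.44 with NaCl and 0.41 and 0.69 untreated, so the NaCl arrays were higher than both untreated arrays. The rise was 0.71 (SE 0.14, adjusted p = 0.0494), with 0.66 and 0.75 between arrays of the same replicate number and scan. It was not called in a fit of the p38α-/- arrays alone, or without either untreated array, or without NaCl replicate 2. In WT MEFs with NaCl for 2 h the Sfrs10 probe read 0.63, which was flagged, and 0.99, and the difference of 0.45 between the genotypes (95% interval 0.12 to 0.78) was not called (adjusted p = 0.203).

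Between p38α-/- and WT MEFs under the same stress, gene means gave the following calls: anisomycin 0 of 35, TNFα 0 of 38 and NaCl (2 h) 0 of 44 by limma, with 1, 0 and 2 at an unadjusted p under 0.05, where 1.24%, 0.407% and 0.629% of all genes were called. Set against untreated p38α-/- MEFs and the pool, the effect of anisomycin was called as different for Prpf31, 1 of 33 genes, where 0.515% were, again with the pool uncancelled, and with the replicate block 4 in place of 1 were called over the 3 stresses. Over the mean of the 3 stresses 0 of 30 genes were called and 4 had an unadjusted p under 0.05, where 8.26% of all genes were called. With the replicate number as a block 1 of the 147 tests of these 4 comparisons was called. Single probes with every spot kept gave 15 of 129 calls (11.6%) over that mean, 3 higher and 12 lower in p38α-/- MEFs, where 11.4% of all probes were called, 6.31% higher and 5.14% lower. Values are given only for called probes described above for their fall at 8 h of NaCl. All of these were lower, and the 3 higher probes are not listed. This comparison shares the WT arrays with NaCl for 2 h with that of 8 h against 2 h. The Sfrs3 probe was lower by 0.59 (SE 0.15, adjusted p = 0.0205), the Sfrs7 probe A_51_P466673 by 0.55 (SE 0.15, adjusted p = 0.0214), the Sf3b1 probe by 0.50 (SE 0.12, adjusted p = 0.00982), the Hnrpll probe by 0.39 (SE 0.10, adjusted p = 0.0196) and the Hnrpa3 probe A_52_P339966 by 0.33 (SE 0.08, adjusted p = 0.0157). Genotype and scan overlap in part: 1 scan holds WT replicate 2 and p38α-/- replicate 1. Within it the same probes differed by -0.37, -0.41, -0.46, -0.40 and -0.32, on arrays that were also part of the comparison above. Of the 129 splicing probes, 41 lay below 0 there, with a median of 0.09. Of all 33453 named probes, 12638 lay below 0, with a median of 0.07. With 1 line for each genotype, line and genotype cannot be told apart.

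**Figure D4:**
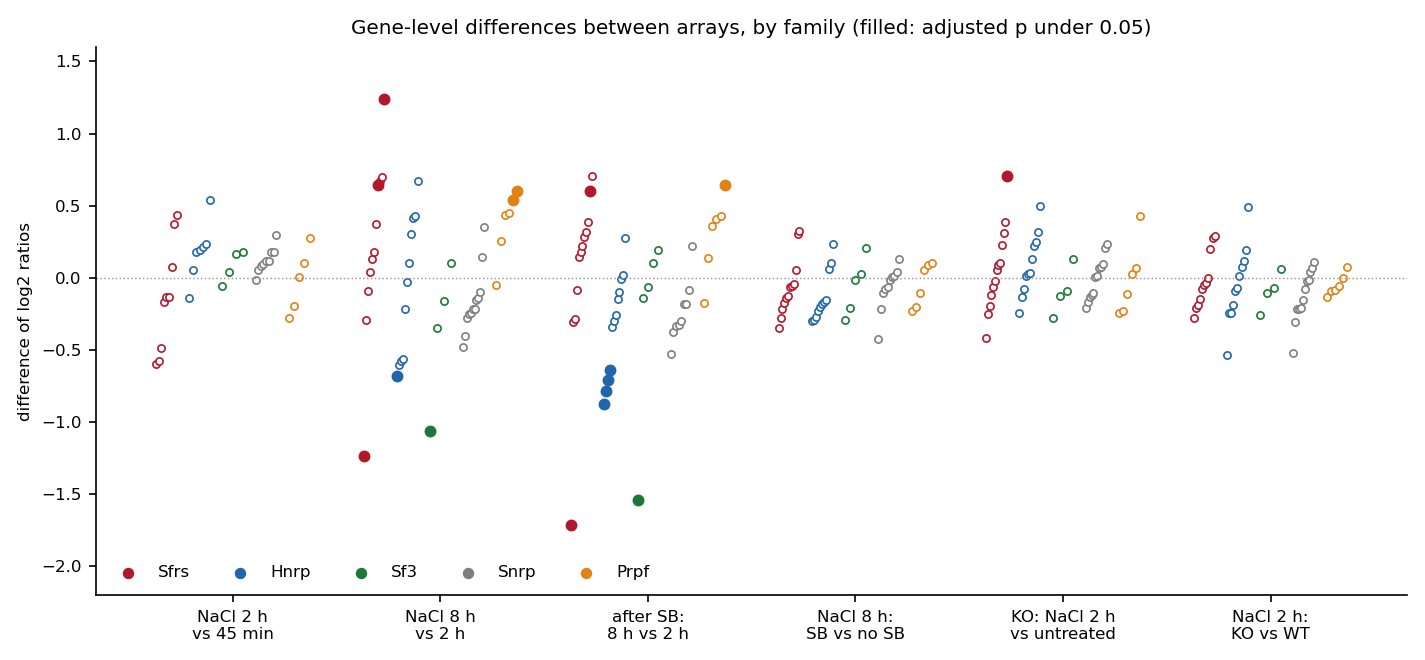
Differences in gene mean log2 ratio (y axis) for the splicing genes tested in 6 comparisons between arrays (x axis), coloured by family. Each point is 1 gene and filled points are called; filled points lie mainly in the comparisons with 8 h of NaCl, with Sfrs3 at -1.24 and -1.71 the lowest from 2 h to 8 h without and with SB203580.

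The early stresses of WT MEFs could be compared with one another. Anisomycin against TNFα, NaCl at 45 min against TNFα and NaCl at 45 min against anisomycin gave 0 calls in splicing genes by limma, over 34, 32 and 30 genes tested, with 1, 0 and 2 at an unadjusted p under 0.05, where 0.176%, 0.186% and 0.281% of all genes were called. The hnRNP medians of these comparisons were -0.06, 0.17 and 0.22, and the SR medians 0.16, 0.02 and -0.18. The medians of all genes were -0.004, 0.011 and 0.005, and the median SE of a splicing gene was 0.18 in each. Differences between the families were not tested.

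Other genes of RNA splicing outside these names (100 listed, 86 on the array) were tested in the same way. Their counts of calls at 8 h of NaCl were small, and are given beside the shares over all genes. Of 60 tested from 2 h to 8 h, 3 were higher and 4 lower, where 3.24% of all genes were higher and 4.33% lower. Mbnl2, a muscleblind-like regulator of alternative exons, rose by 1.64 (SE 0.23), Pnn, the SR-related protein pinin, by 0.99 (SE 0.16) and Luc7l2, a U1-associated factor, by 0.52 (SE 0.14). Rbm10 fell by 0.98 (SE 0.18), Clk1, a kinase that phosphorylates SR proteins, by 0.92 (SE 0.23), Tia1, a stress granule and splicing protein, by 0.71 (SE 0.17) and Magoh, of the exon junction complex, by 0.52 (SE 0.14). After SB203580, 4 of 60 were higher and 1 lower, where 3.19% and 3.83% of all genes were. Mbnl2, Casc3, Pnn and Cugbp1 were higher, by 1.50, 0.91, 0.73 and 0.70, and Rbm10 was lower by 0.77. With NaCl for 2 h in p38α-/- MEFs 0 of 62 were called by limma, with 6 at an unadjusted p under 0.05, where 1.05% of all genes were called.

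Against the pool, 176 of 671 tests of splicing genes over the 15 groups were called. With NaCl for 8 h 22 of 54 were called without and 23 of 46 with SB203580, where 21.8% and 20.8% of all genes were called. With SB203580 alone 13 of 40 were called, where 25.9% were, and in untreated p38α-/- MEFs 13 of 46, where 14.7% were. WT MEFs gave 11 of 40 with anisomycin (11.4% of all genes), 9 of 41 with TNFα (10.4%), 6 of 36 with NaCl for 45 min (9.17%) and 9 of 49 at 2 h (9.74%). With SB203580 in addition the counts were 7 of 39 (11.4%), 11 of 45 (9.04%), 7 of 34 (16.2%) and 14 of 52 (16.7%). Stressed p38α-/- MEFs gave 9 of 46 with anisomycin (12.2%), 9 of 50 with TNFα (7.24%) and 13 of 53 with NaCl (17.8%). Part of the splicing probes kept to the same side of the pool whatever the treatment. Of the 129 splicing probes, 19 lay above and 15 below the pool on all 30 arrays, which is 26.4%, against 12.8% of all named probes. Hnrpa0, a relative of Hnrpa1, was lowest, with probe A_51_P517423 between -2.70 and -1.14 and a median of -2.02 over all 30 arrays. Probes of 1 gene could differ in this: Sfrs1 probe A_52_P525674 had a median of -0.93 and was below the pool on all 30 arrays, while Sfrs1 probe A_51_P485899 lay between -0.36 and 0.80. A lasting offset of this kind and an effect common to all treatments cannot be told apart with 1 untreated pool.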

How the data were processed

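Scanner files of 30 two-colour arrays were used. Per the file headers, Agilent Feature Extraction 8.1.1.1 (the study's methods name another version) subtracted background with spatial detrending, normalised the dyes by linear and LOWESS steps, set dim signals to surrogates, and wrote processed intensities for both dyes and the log10 ratio of Cy5 over Cy3 as deposited. The authors also deposited a table of log2 values of the same arrays, normalised and centred near 0 by a method not given in the sources used here, and it served only as an alternative.

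Log10 ratios were turned into log2 ratios. Control spots and spots flagged as outliers were left out, the remaining spots were averaged to 1 value per probe and then per gene, and 15 groups of 2 arrays were fitted together with limma 3.58.1 (R 4.3.3; Python 3.11.15 for counts and figures). Contrasts between groups were tested by moderated statistics with Benjamini-Hochberg adjustment over all genes or probes tested in the contrast, and an adjusted p under 0.05 was a call. The fit was tested on simulated data with independent noise per array, so the correlation between same-numbered arrays was not part of that test. A group needed both arrays of a gene to be tested. The number of arrays limits the precision. Single-probe fits, with flagged spots left out or kept, were added after seeing the data.

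Replicate numbers paired arrays: deviations of same-numbered arrays correlated at 0.13 to 0.65 in all 55 WT pairs and 0.15 to 0.45 in all 6 p38α-/- pairs, and a number marks a shared scan in WT. The 4 scans were used as a block in an alternative.

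Members were the genes whose array name starts with the 5 stems given, which with the other lists were chosen with earlier results of these data known. Named were the classic SR proteins and hnRNPs in every case and, in each comparison, up to 10 members called in each direction, and up to 5 other splicing genes. Single probes were described where gene means joined probes that differed. Alternatives were normexp with loess, the deposited log2 table, flagged spots kept, spots well above background, the brightest probe, a replicate block, a scan block, 1 genotype alone and leaving out each array. Promoters came from the RefSeq table.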

Additional observations from a re-analysis of the deposited data

Results flagged for a closer look

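Differences between effects were called for 2 splicing genes. The effect of NaCl for 2 h on Sfrs7 differed between cells with and without SB203580 by -1.01 on the log2 scale (SE 0.22, 95% interval -1.48 to -0.54, adjusted p = 0.0337 by limma), with -1.45 and -0.57 in the replicates. The effect of anisomycin on Prpf31 differed between p38α-/- and WT MEFs by 0.93 (SE 0.20, 95% interval 0.51 to 1.34, adjusted p = 0.0479 by limma), with 0.62 and 1.23 in the replicates, and was not called over the 1 probe unflagged on every array compared (0.81, adjusted p = 0.0754). In both, the untreated WT side is the pool, so a lasting difference between dyes enters the value. Prpf31 probe A_52_P252187 lay below the pool on every array outside NaCl 8 h, and no call was made for either gene where the pool cancels, with SB203580 plus NaCl set against NaCl for 2 h or p38α-/- against WT MEFs with anisomycin.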

How the results depend on the processing

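Counts of calls depended on which spots were read. For single probes, the counts here are of genes with at least 1 called probe, so a gene with several probes could count through any of them. Numbers of tests and shares over all genes differed between the alternatives and are not given here. Against the pool 176 calls became 493 with the deposited log2 table, 403 with flagged spots kept, 330 with single probes and 625 with single probes and flagged spots kept. In the NaCl time course 26 became 60, 53, 40 and 89 in that order. From 2 h to 8 h, 7 became 16, 15, 11 and 22 without SB203580, and 8 became 17, 15, 14 and 22 with it. For stresses after SB203580 against SB203580 alone, 6 became 23 with the table, 14 with flagged spots kept and 26 with single probes and flagged spots kept. The interaction of SB203580 and stress went from 1 to 10 with normexp and loess, 65 with the table, 24 with flagged spots kept, 3 with spots well above background, 7 with the brightest probe, 9 with the replicate block, 2 with probes measured on every array compared, 7 with single probes and 78 with flagged spots kept on them. The knockout interaction went from 1 to 5, 44, 21 and 2 for the first 4 of these, 4 with the replicate block, 0 with probes measured on every array and 51 with single probes and flagged spots kept. Between genotypes under stress 0 became 1 with normexp, 10 with the table, 4 with flagged spots kept, 1 with the brightest probe, 1 with the replicate block, 2 with probes on every array, 3 with single probes and 13 with flagged spots kept on them. Stress in p38α-/- MEFs went from 1 to 0 with that genotype alone. The cause was not tested. SB203580 plus stress against stress had 0 calls under every alternative, and no called value turned its sign.

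Leaving out 1 array gave 158 to 188 calls against the pool, 14 to 25 in the time course (14 without NaCl 8 h replicate 2 and 17 without SB203580 NaCl 8 h replicate 2), 0 to 5 and 2 to 5 from 2 h to 8 h without and with SB203580, 1 to 11 after SB203580, 0 to 19 in its interaction (19 without SB203580 replicate 2), and 0 to 1 for stress in p38α-/- MEFs and their interaction. The replicate block changed no other count beyond 1.5 times, and the scan block gave 9 and 9 from 2 h to 8 h. The single probes of Sfrs3 (-2.66 to -1.70), Sf3b1 (-1.72 to -1.20) and Sfrs7 (-1.62 to -1.11) stayed called from 2 h to 8 h under 8 alternatives each; with SB203580 the Sfrs7 probe (-1.21 to -0.68) lost its call in 3 of 8. Surrogates and 2 arrays a group limit small changes.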
